A study of Homo sapiens with 12 samples.

Results

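The Sprouty, SPRED and DUSP genes are the negative feedback genes of the RAS-ERK pathway, and 10 of them were followed here: SPRY1, SPRY2, SPRY4, SPRED1, SPRED2, SPRED3, DUSP1, DUSP4, DUSP5 and DUSP6. They were chosen by symbol, with earlier results of these data known. Each was found once among the 62069 genes of the deposited count table. All 10 were among the 15284 genes with enough reads to be tested, with 78 to 30053 reads per gene and library. The cells were IMR90 ER:RAS, normal human lung fibroblasts that carry a RAS protein joined to an estrogen receptor domain, which stays inactive until 4-hydroxytamoxifen (4OHT) is added. The cells were compared in 4 groups of 3 RNA-seq libraries, and all 4 groups carried ER:RAS. The vector group was not induced, whereas vector/4OHT cells received 100 nM 4OHT and enter oncogene-induced senescence (OIS). The shXPO7_3/4OHT and shXPO7_5/4OHT groups were induced in the same way and carried an shRNA against XPO7, a receptor for nuclear export and import. The sample labels give day 5 for all groups, after 7 days of culture with fresh medium on day 4. The libraries are called T, A and B below, or T, A and C for vector. Whether these were separate cultures is not stated, so a p-value here weighs a difference against the spread among libraries, and that spread may be technical only.

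When RAS is active, it passes a signal through the RAF, MEK and ERK kinases, and ERK in turn switches on genes whose products hold the pathway back. Sprouty proteins act near the receptors and RAS at the cell membrane. SPRED proteins, their relatives, bring the RAS inactivator neurofibromin (encoded by NF1) to the membrane. The DUSP genes encode dual-specificity phosphatases that remove the activating phosphates from ERK and the related kinases p38 and JNK. DUSP6 and DUSP5 act mainly on ERK, in the cytoplasm and the nucleus respectively, while DUSP4 and DUSP1 are nuclear enzymes with a wider choice of substrates. The comparison of vector/4OHT with vector asks how these genes stood in OIS, and the comparisons of the knockdown groups with vector/4OHT ask whether their levels differed when XPO7 was depleted.

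In the GENCODE 29 annotation of GRCh38, matched by Ensembl identifier, all 10 are protein-coding genes. DUSP4 is ENSG00000120875. SPRY1 (ENSG00000164056) lies at chr4:123396795-123403760 (plus strand), SPRY2 (ENSG00000136158) at chr13:80335976-80340951 (minus) and SPRY4 (ENSG00000187678) at chr5:142310427-142326455 (minus). SPRED1 (ENSG00000166068) lies at chr15:38252326-38357249 (plus), SPRED2 (ENSG00000198369) at chr2:65310851-65432637 (minus) and SPRED3 (ENSG00000188766) at chr19:38388421-38399587 (plus). DUSP1 (ENSG00000120129) lies at chr5:172768090-172771195 (minus), DUSP5 (ENSG00000138166) at chr10:110497838-110511544 (plus) and DUSP6 (ENSG00000139318) at chr12:89347232-89353271 (minus). SPRY4, DUSP1 and DUSP6 overlap annotated antisense genes and SPRED2 overlaps a sense intronic gene. Whether reads were counted by strand is not stated, so reads from such partners cannot be told apart from reads of these 4 genes.

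DUSP5 had no entry among the RefSeq promoter sequences on GRCh38.p14, and DUSP4 was left out of the search. For the other 8 of the 10 genes, 13 windows of 300 bases were used (250 before and 50 after a transcription start). They were searched for TGANTCA (the AP-1 site), TGACGTCA (the cyclic AMP response element, CRE) and CCGGAAG (an ETS site) on both strands. Of the windows, 5 are shown up to their start, with matches in capitals. They are those of DUSP6 and SPRY4 and 3 that held a whole match before the start. Among the 8 genes searched, DUSP6 and SPRY4 differed most in level between vector/4OHT and vector.
DUSP6, chr12:89352502-89352751, minus strand: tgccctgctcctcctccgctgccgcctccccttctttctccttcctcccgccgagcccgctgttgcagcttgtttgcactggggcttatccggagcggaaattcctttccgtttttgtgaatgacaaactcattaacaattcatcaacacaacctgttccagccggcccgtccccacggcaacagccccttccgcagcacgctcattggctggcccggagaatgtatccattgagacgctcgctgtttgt
SPRY4, chr5:142324248-142324497, minus strand: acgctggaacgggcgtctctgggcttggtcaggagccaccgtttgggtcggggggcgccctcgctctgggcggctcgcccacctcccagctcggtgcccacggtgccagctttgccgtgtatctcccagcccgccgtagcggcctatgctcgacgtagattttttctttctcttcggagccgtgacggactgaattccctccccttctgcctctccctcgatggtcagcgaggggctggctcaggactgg
DUSP1, chr5:172771196-172771445, minus strand: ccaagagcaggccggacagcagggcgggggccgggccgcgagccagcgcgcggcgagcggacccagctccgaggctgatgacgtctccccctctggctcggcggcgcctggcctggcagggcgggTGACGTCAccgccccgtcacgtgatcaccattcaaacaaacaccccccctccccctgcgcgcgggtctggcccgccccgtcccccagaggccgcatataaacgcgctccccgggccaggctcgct
SPRED3, chr19:38389541-38389790, plus strand: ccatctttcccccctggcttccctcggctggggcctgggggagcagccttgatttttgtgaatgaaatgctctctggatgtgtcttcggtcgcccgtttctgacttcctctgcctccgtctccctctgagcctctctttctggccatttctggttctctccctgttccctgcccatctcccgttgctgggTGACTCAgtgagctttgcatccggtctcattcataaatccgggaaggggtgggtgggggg
SPRY1, second start, chr4:123398136-123398385, plus strand: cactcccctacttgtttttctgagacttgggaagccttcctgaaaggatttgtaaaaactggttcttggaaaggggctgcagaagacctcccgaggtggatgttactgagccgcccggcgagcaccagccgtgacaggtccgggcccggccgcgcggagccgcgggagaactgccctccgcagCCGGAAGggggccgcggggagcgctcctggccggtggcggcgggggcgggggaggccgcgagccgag
Counted from the first transcribed base, the CRE of DUSP1 began at -125, the AP-1 match of SPRED3 at -60 and the ETS match of SPRY1 at -67. SPRED2 held AP-1 matches at -6 and 34 in the window of its second start. Thus 1 of the 13 windows held the CRE, as did 1.85% of all 35116 RefSeq promoter windows. The AP-1 match was in 2 of 13 (7.71% of all windows) and the ETS match in 1 of 13 (10.3% of all windows). The windows of DUSP6, SPRY4, SPRY2 and SPRED1 held none of these letters. For DUSP6, SPRY4 and SPRED1, the only window used lay inside the gene as annotated in GENCODE. The first base of the gene there is chr12:89353271 for DUSP6, chr5:142326455 for SPRY4 and chr15:38252326 for SPRED1. The bases before these outer starts were not searched, so whether they hold such sites was not tested.

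The state of the cells was checked first. XPO7 stood at 127 to 144 CPM (the read count per library size, scaled by the TMM method) in vector/4OHT, at 26.4 to 28.7 CPM in shXPO7_3/4OHT and at 50.8 to 54.0 CPM in shXPO7_5/4OHT, so both knockdowns were present in every library, the first deeper. Of 6 genes used to check the cells, which include XPO7, 3 were higher and 2 lower in vector/4OHT than in vector (24.8% and 26.1% of all genes). The gene that passed in neither direction was XPO7, at 135 ± 7.04 CPM in vector and 137 ± 8.81 CPM in vector/4OHT. The proliferation marker MKI67 fell by 3.30 on the log2 scale and the cytokine gene IL1B rose by 8.99. In each knockdown group against vector/4OHT, 1 of the 6 passed, XPO7, as lower (0.0327% of all genes with shXPO7_3 and 0.111% with shXPO7_5). Mean MKI67 was 270 CPM in vector, 27.5 CPM in vector/4OHT, 35.9 CPM in shXPO7_3/4OHT and 35.5 CPM in shXPO7_5/4OHT. Mean IL1B was 0.257, 137, 136 and 118 CPM in the same order. Totals per library ran from 28534141 to 60397769 reads. The summed level of 10 fibroblast markers was 24836 to 28755 CPM in vector, 17263 to 18808 CPM in vector/4OHT and 17945 to 22258 CPM in the knockdown groups. By the test, 7 of the 10 were lower in vector/4OHT (26.1% of all genes). PECAM1, CDH5, KRT5, KRT14 and CD3E, which mark endothelial, epithelial and T cells, had 0 reads in all 12 libraries, and 5 blood cell markers together reached at most 0.211 CPM. Other epithelial and endothelial markers were detected. In vector the group mean was 5.60 CPM for CLDN4, 0.912 CPM for EPCAM, 12.4 CPM for TEK and 2.22 CPM for VWF. Of the epithelial and endothelial markers, 2 of 2 and 1 of 2 tested were lower in vector/4OHT (26.1% of all genes). The libraries also differed in a trend of level with the GC content of genes. Spearman's rho of a gene's log ratio (to the vector/4OHT mean) with its GC content was between -0.05 and 0.30 in vector, -0.21 and 0.32 in vector/4OHT, -0.34 and 0.57 in shXPO7_3/4OHT, and 0.11 and 0.78 in shXPO7_5/4OHT.

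All 10 feedback genes were higher in vector/4OHT than in vector, from 1.33-fold for DUSP1 to 11.2-fold for DUSP6 (edgeR quasi-likelihood test, adjusted p of 0.00262 or lower for each). By this test 24.8% of the 15284 genes were called higher at an adjusted p under 0.05 and 50.9% were called in either direction. In none of the 10 did a vector/4OHT library overlap a vector library, whereas 31.8% of all genes were higher without overlap. The median log2 fold change was 1.29 over the 10 genes and -0.0068 over all genes tested. Of the 10, 6 were at least 2-fold higher. In bulk RNA, more cells that express a gene and more of its RNA per cell cannot be told apart. The plot of levels by library shows this step for each gene.

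**Figure D1:**
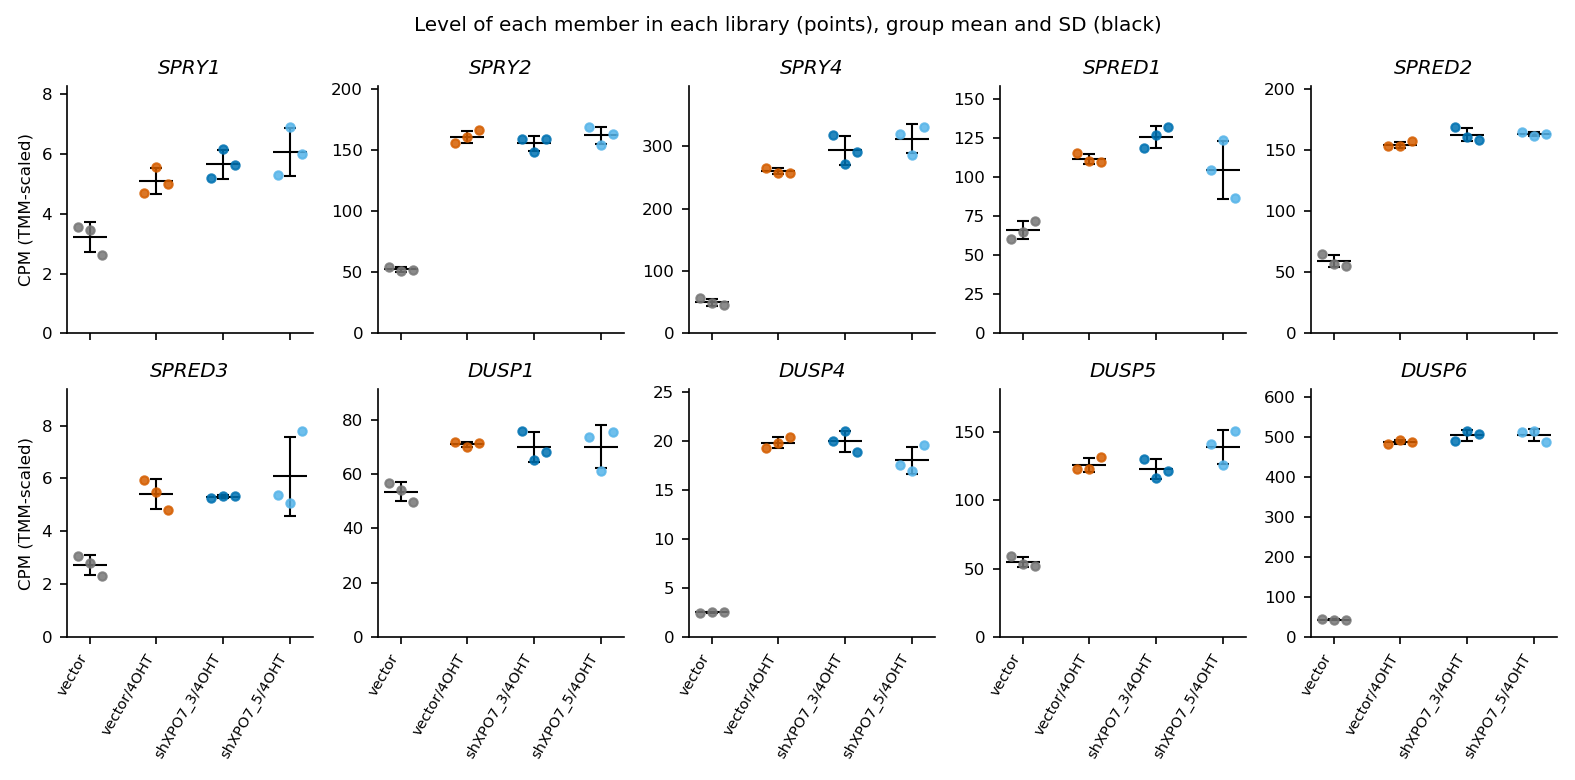
Level of the 10 feedback genes in CPM (TMM-scaled, vertical axis from 0) in each of the 12 libraries, with a panel per gene and the 4 groups along the horizontal axis; points are libraries in the order T, A and B (C for vector), and black bars are the group mean and SD (n = 3). In every panel the 3 vector libraries lie under all 9 induced libraries.

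Among the phosphatases, DUSP6 was at 44.3, 43.1 and 43.2 CPM in the vector libraries and at 483, 493 and 488 CPM in the vector/4OHT libraries. The libraries of a group differed by a few percent only, and the change ranked 139 of 15284 genes from the top (log2 fold change 3.49, SE 0.056, edgeR adjusted p = 3.43e-12). DUSP4 was scarce in vector, at 2.41, 2.53 and 2.55 CPM, and stood at 19.3, 19.8 and 20.4 CPM in vector/4OHT. This 7.93-fold difference was the next largest of the 10 (log2 fold change 2.99, SE 0.090, adjusted p = 1.14e-10), and rested on smaller counts than that of DUSP6. DUSP5 rose from 59.4, 53.3 and 51.9 CPM to 123, 123 and 132 CPM, which was 2.29-fold. DUSP1, which also answers to stress signals, moved least, from 56.7, 54.0 and 49.8 CPM to 71.7, 70.0 and 71.4 CPM. Its groups did not overlap, but they lay close together (1.33-fold, 95% interval of the log2 fold change 0.21 to 0.61).

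Among the Sprouty genes, SPRY4 was at 56.3, 48.5 and 45.8 CPM in vector and at 265, 258 and 258 CPM in vector/4OHT. It was 5.18-fold higher (log2 fold change 2.37, SE 0.092, adjusted p = 8.07e-10). SPRY2 was at 54.6, 51.0 and 51.7 CPM in vector and at 156, 160 and 166 CPM in vector/4OHT (3.06-fold). The libraries of each group lay close together. SPRY1 was near 3 CPM in vector (3.55, 3.45 and 2.64 CPM) and at 4.70, 5.56 and 4.98 CPM in vector/4OHT. It was 1.58-fold higher, with the widest relative spread of the family.

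Among the SPRED genes, SPRED2 was at 64.9, 57.0 and 55.5 CPM in vector and at 153, 153 and 157 CPM in vector/4OHT. This was 2.62-fold (log2 fold change 1.39, SE 0.068, adjusted p = 6.03e-09). SPRED1, mutated in an inherited disorder of RAS signalling, was at 60.5, 65.1 and 71.9 CPM in vector and at 115, 110 and 109 CPM in vector/4OHT, a 1.70-fold difference. SPRED3 was scarce throughout, with 3.06, 2.82 and 2.30 CPM in vector and 5.93, 5.49 and 4.82 CPM in vector/4OHT. It was 1.98-fold higher. For all 3 SPREDs the groups stood apart.

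Levels can be compared between genes only per length, here as CPM per kilobase of exons. On that scale the 4 DUSP genes together rose from 57.2 ± 3.27 in vector to 191 ± 2.31 in vector/4OHT (SD, n = 3). DUSP1 was the most abundant of them in vector, with 46.3% ± 0.80 of the DUSP sum, and DUSP6 the most abundant in vector/4OHT, with 55.1% ± 0.72. DUSP6 made up 16.5% ± 0.73 in vector, and DUSP1 18.4% ± 0.31 in vector/4OHT. Within each library, the ratio of DUSP6 to DUSP1 was 0.340, 0.348 and 0.378 in vector and 2.94, 3.07 and 2.98 in vector/4OHT. The order of these 2 phosphatases was therefore turned in every library. DUSP5 went from 36.6% ± 0.75 to 25.1% ± 0.74 of the DUSP sum although its own level rose, and DUSP4 stayed a small part, 0.60% ± 0.051 and 1.43% ± 0.024.

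The 3 Sprouty genes together rose from 25.7 ± 1.51 to 93.8 ± 1.22 CPM per kilobase. SPRY2 remained the most abundant, with 67.2% ± 1.75 of the sum in vector and 56.4% ± 1.12 in vector/4OHT, and SPRY4 went from 29.7% ± 1.47 to 42.3% ± 1.15. The SPRED sum rose from 19.9 ± 0.51 to 44.4 ± 0.37 CPM per kilobase, with SPRED2 at 57.6% ± 3.75 and 67.5% ± 1.01 of it. Ordered per length in vector, the 10 genes ran DUSP1, DUSP5, SPRY2, SPRED2, DUSP6, SPRED1, SPRY4, SPRY1, SPRED3 and DUSP4. SPRED1 and SPRY4 were the neighbours in this order whose libraries overlapped. In vector/4OHT the order was DUSP6, SPRY2, DUSP5, SPRY4, DUSP1, SPRED2, SPRED1, DUSP4, SPRY1 and SPRED3, with no overlap between neighbours. DUSP6 moved from the fifth to the first place, at 105 ± 1.10 CPM per kilobase against 52.9 ± 1.71 for SPRY2, the next gene.

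**Figure D2:**
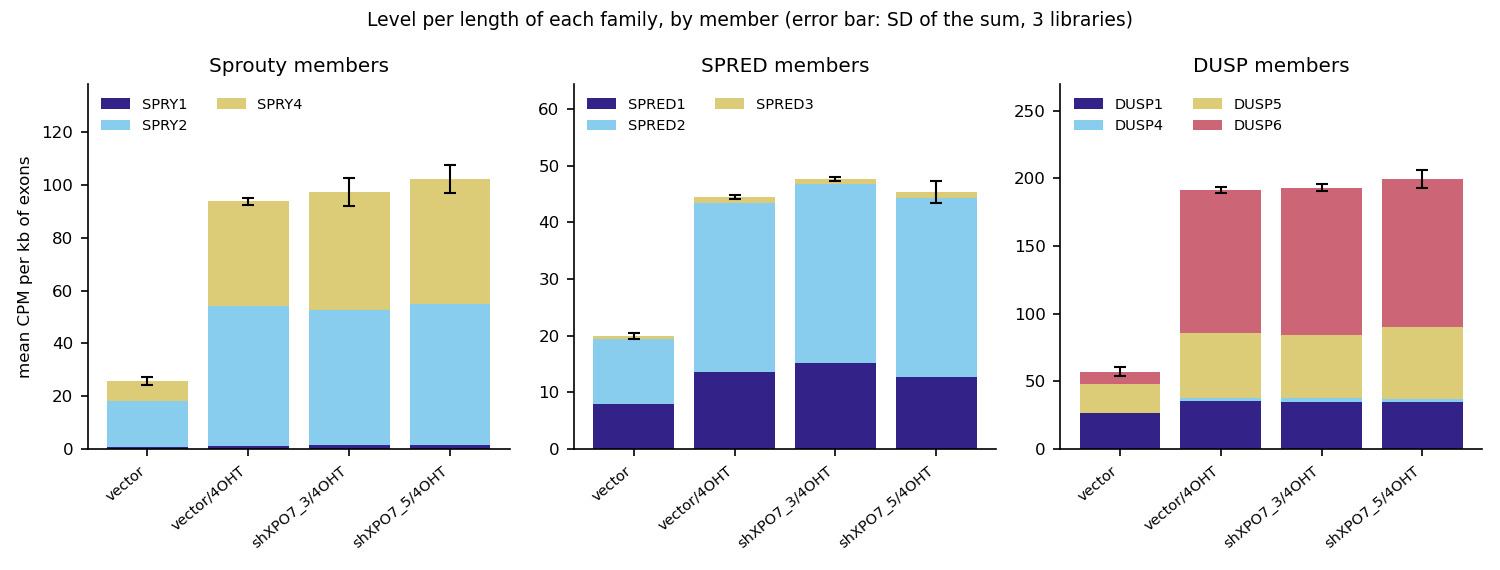
Stacked bars of the mean CPM per kilobase of exons (vertical axes from 0, scaled for each family) for the Sprouty, SPRED and DUSP members in the 4 groups; colours are genes and error bars are the SD of the family's sum (n = 3 libraries). The DUSP sum is 57.2 in vector and between 191 and 199 in the 3 induced groups, and the DUSP6 part takes 16.5% of it in vector and 55.1% in vector/4OHT.

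The other genes of the pathway did not all move with the feedback genes. Of the other MAPK phosphatases tested, 2 were higher and 3 lower in vector/4OHT (24.8% and 26.1% of all genes), with a median log2 fold change of -0.32. DUSP10, a phosphatase of p38 and JNK, was at 53.6 ± 1.89 CPM in vector and 28.0 ± 1.05 CPM in vector/4OHT (log2 fold change -0.94, adjusted p = 9.46e-07). DUSP8 fell by 0.56 on the log2 scale and DUSP2 rose by 1.01, both at levels under 4 CPM. The remaining members, named after their values were seen, were DUSP7, which fell by 0.32, and DUSP16, which rose by 0.25. DUSP9 had too few reads to be tested.

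Of 10 other inhibitors of the pathway, 6 were higher and 4 lower (24.8% and 26.1% of all genes), with a median of 0.40. ERRFI1, a feedback inhibitor of the EGF receptor, was the member that moved most, from 59.1 ± 0.68 to 233 ± 2.34 CPM (log2 fold change 1.98, adjusted p = 8.08e-11). CBLB, a ubiquitin ligase for receptors, rose by 0.71, and LRIG1, which promotes the loss of receptors, fell by 0.87. SPRY3, the remaining Sprouty gene, was higher by 0.56 and NF1, the partner of the SPREDs, by 0.44 (both chosen after their values were seen).

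Of 12 other genes known to be induced by ERK, 9 were higher and 1 lower (24.8% and 26.1% of all genes), with a median of 0.82. IER3, an early response gene, went from 66.7 ± 4.98 to 480.0 ± 9.53 CPM (log2 fold change 2.85, adjusted p = 6.46e-10). The transcription factor genes FOS and EGR1 rose by 2.05 and 1.77, FOS from 0.575 ± 0.092 to 2.38 ± 0.29 CPM only. FOSL1, an AP-1 gene, was the member that was lower (log2 fold change -1.42, adjusted p = 6.56e-08; named after its value was seen). ETV5 and MYC did not pass the test.

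The kinases and adaptors themselves moved less. Of 18 genes of the core ERK cascade, 4 were higher and 3 lower (24.8% and 26.1% of all genes), with a median of 0.055. HRAS was the one that rose most, from 986 ± 106 to 1930 ± 75.8 CPM, and reads of the endogenous gene and of a RAS transgene cannot be told apart. SHC1, an adaptor, rose by 0.66, and GAB1, a docking protein, fell by 0.83. Of 11 p38 and JNK kinases, 3 were higher and 2 lower (24.8% and 26.1% of all genes). Among them were MAPK13, a p38 kinase, higher by 1.32, MAPK10, a JNK kinase, lower (-0.85) and MAP2K3, which activates p38, lower (-0.59). The plot of the lists sets these side by side.

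**Figure D3:**
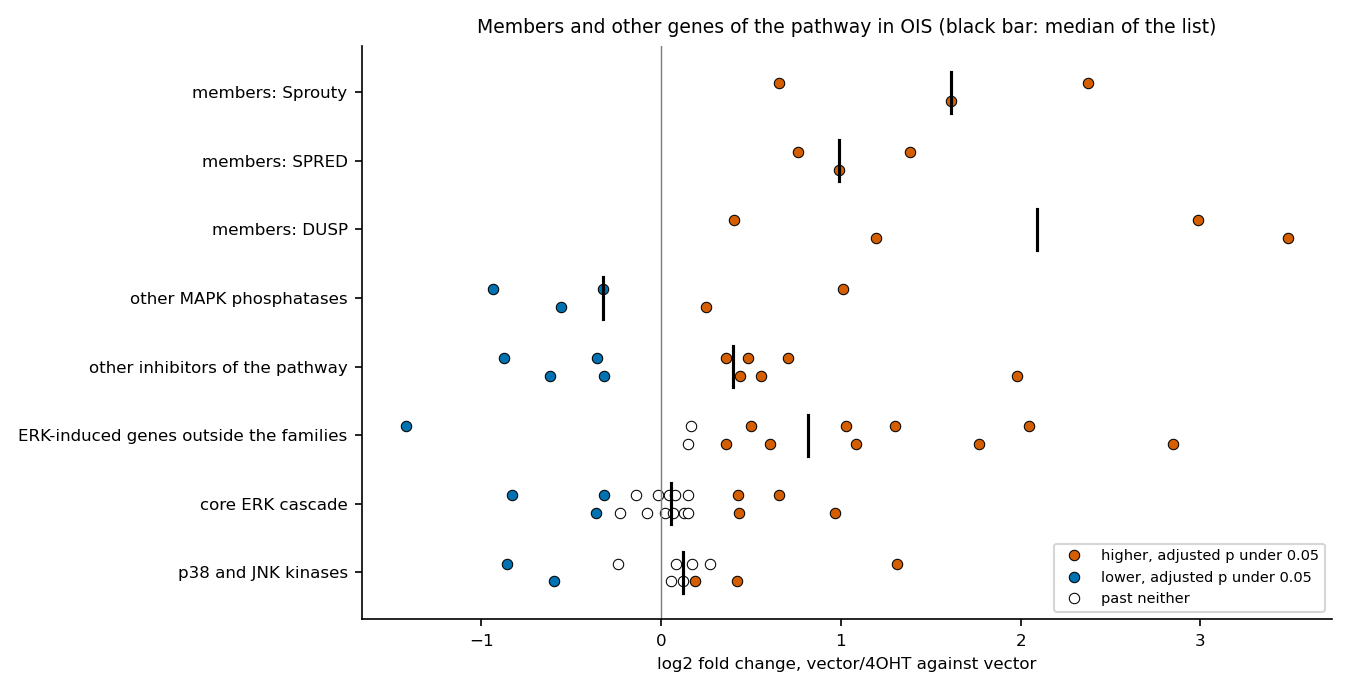
Log2 fold change of vector/4OHT against vector (horizontal axis) for each tested gene of the 3 member families and of 5 other lists (rows); orange points are higher and blue points lower at an adjusted p under 0.05 (edgeR), open points pass in neither direction, and black bars are list medians. All 10 members lie to the right of 0, while the core ERK cascade is spread around its median of 0.055.

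In the XPO7 knockdowns, none of the 10 feedback genes passed the test against vector/4OHT with either shRNA. In shXPO7_3/4OHT 0.124% of all genes passed it and in shXPO7_5/4OHT 0.589% did (edgeR, adjusted p under 0.05). These shares rested on all libraries: without any single library of the groups compared, the 19 genes of the first became 1, and the 90 of the second became 2 to 14 or, without library A of shXPO7_5/4OHT, 3634. At an unadjusted p under 0.05, 0 of the 10 passed with shXPO7_3 (6.41% of all genes) and 1, SPRY4, with shXPO7_5 (21.6% of all genes), and DESeq2 called none of the 10 with either shRNA. The log2 fold changes ran from -0.047 to 0.17 with shXPO7_3 and from -0.14 to 0.26 with shXPO7_5. Their 95% intervals reached at most 1.37-fold and 1.47-fold above and 0.772-fold and 0.792-fold below vector/4OHT, so a change of 2-fold lay outside the interval of each gene. The comparisons share the vector/4OHT libraries. Against vector, all 10 were higher in both knockdown groups, where 24.5% (shXPO7_3) and 25.3% (shXPO7_5) of all genes were called higher.

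**Figure D4:**
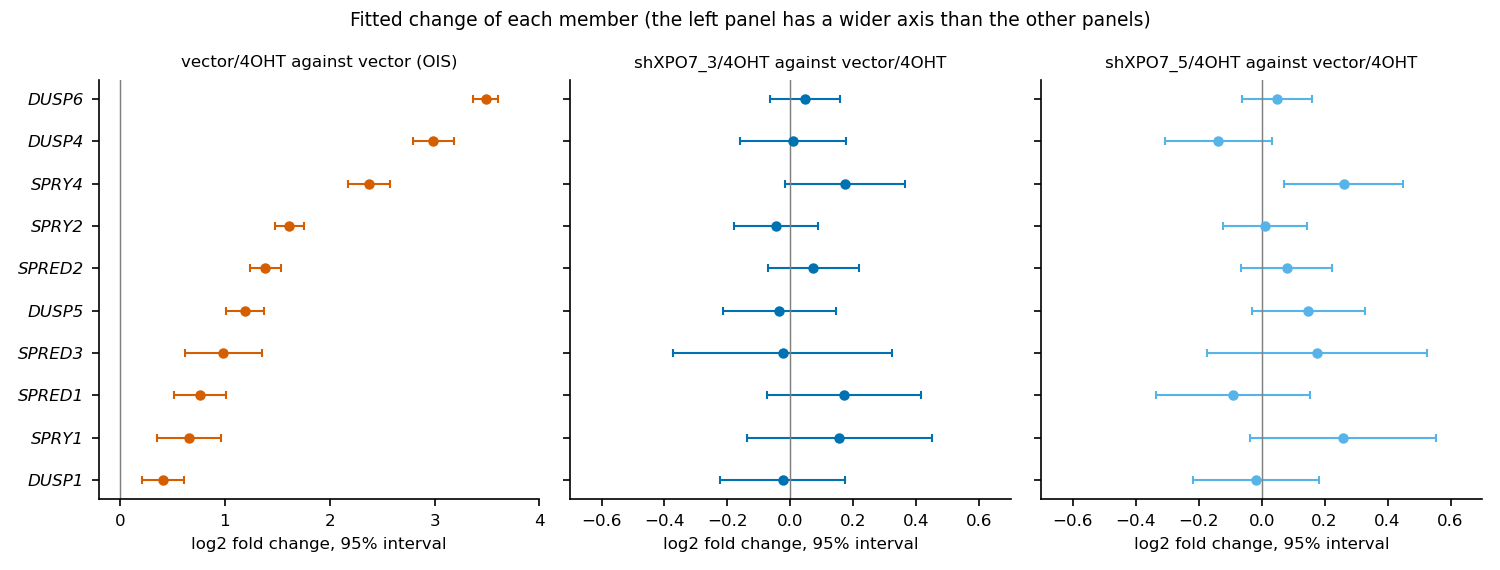
Fitted log2 fold change of each feedback gene (points) with its 95% interval (bars) from edgeR, with panels for vector/4OHT against vector, shXPO7_3/4OHT against vector/4OHT and shXPO7_5/4OHT against vector/4OHT; the horizontal axis of the first panel is wider than that of the others. The first panel runs from 0.41 (DUSP1) to 3.49 (DUSP6), whereas the knockdown values lie between -0.14 and 0.26, with SPRY4 with shXPO7_5 the gene whose interval excludes 0.

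DUSP6 was at 490, 516 and 506 CPM in shXPO7_3/4OHT and at 513, 514 and 488 CPM in shXPO7_5/4OHT, each group overlapping vector/4OHT. Its log2 fold changes were 0.046 (95% interval -0.064 to 0.16) and 0.049 (-0.061 to 0.16), the narrowest intervals of the 10 genes. DUSP4 was at 20.0, 21.0 and 18.9 CPM with shXPO7_3 and at 17.6, 17.0 and 19.5 CPM with shXPO7_5. All 3 libraries of the second shRNA lay under the vector/4OHT mean, and 1 of them within its range (log2 fold change -0.14, adjusted p = 0.281, passed in 1 of 21 alternatives at 0.0465). DUSP5 was at 130, 116 and 122 CPM and at 141, 126 and 151 CPM, overlapping vector/4OHT in both groups. DUSP1 was at 76.0, 65.3 and 68.1 CPM and at 73.8, 61.2 and 75.4 CPM, around its vector/4OHT values and more spread than them.

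SPRY4 had the highest log2 fold change against vector/4OHT in both knockdown groups, but by a narrow margin. The next genes were SPRED1 with shXPO7_3 (0.170 against 0.173 for SPRY4) and SPRY1 with shXPO7_5 (0.258 against 0.261). SPRY4 was at 317, 271 and 291 CPM with shXPO7_3 and 319, 286 and 330 CPM with shXPO7_5. All 6 libraries lay above the highest vector/4OHT library (265 CPM). The log2 fold changes were 0.17 (95% interval -0.016 to 0.36, adjusted p = 0.842) and 0.26 (0.071 to 0.45, adjusted p = 0.165), so neither passed the edgeR test, and without library A of shXPO7_5/4OHT the second was 0.32 (adjusted p = 0.0382). Over 21 alternative settings, SPRY4 passed in 1 with shXPO7_3 (adjusted p = 0.0447) and in 2 with shXPO7_5 (lowest adjusted p = 0.0240). SPRED2 was also above every vector/4OHT library in all 6, at 159 to 169 CPM with shXPO7_3 and 162 to 165 CPM with shXPO7_5, by only 0.073 and 0.079 on the log2 scale. In all, 3 of the 10 genes were higher without overlap with shXPO7_3 (7.46% of all genes) and 2 with shXPO7_5 (14.2% of all genes), and none was lower without overlap. SPRY2 overlapped vector/4OHT in both groups (159, 148 and 159 CPM, then 168, 154 and 163 CPM). Within a library, the ratio of SPRY4 to SPRY2 per length was 0.718 to 0.788 in vector/4OHT, 0.846 to 0.923 in shXPO7_3/4OHT and 0.857 to 0.940 in shXPO7_5/4OHT. The 6 knockdown libraries were thus above the 3 vector/4OHT libraries in this ratio, with 3 libraries against 3 allowing no exact permutation p under 0.1. The pair is 1 of the 45 that the 10 genes allow. Because SPRY2 overlapped vector/4OHT, the ratio largely repeats the SPRY4 values and adds no separate support.

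SPRED1 was at 118, 127 and 132 CPM with shXPO7_3, above every vector/4OHT library, and at 105, 123 and 86.3 CPM with shXPO7_5, on both sides of them. The log2 fold changes were 0.17 and -0.092, and neither passed the test (adjusted p = 0.999 and 0.594). The low value came from library B of shXPO7_5/4OHT, without which the second was 0.033. SPRED3 was at 5.24, 5.34 and 5.34 CPM with shXPO7_3 and at 5.39, 5.07 and 7.81 CPM with shXPO7_5. The same library B held the high value, and without it the log2 fold change of SPRED3 with shXPO7_5 was -0.044 in place of 0.18. SPRED1 has the lowest GC content of the 10 genes (40.7% over its annotated transcripts) and SPRED3 the highest (61.9%). Library B of shXPO7_5/4OHT had the strongest trend with GC content of the 12 libraries (rho = 0.78). The cause of its SPRED1 and SPRED3 values was not tested. With a correction for GC content and length, the log2 fold change of SPRED1 with shXPO7_5 was 0.21 (adjusted p = 0.177) and that of SPRED3 -0.043. SPRED1 passed in 1 of 21 alternatives with each shRNA, as higher in both (adjusted p = 0.0489 and 0.0336). SPRY1 was at 5.19, 6.16 and 5.61 CPM and at 5.29, 6.89 and 6.01 CPM, with intervals of -0.14 to 0.45 and -0.037 to 0.55 for the log2 fold change.

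Between the shRNAs, 0 of the 10 genes passed the edgeR test (0.0131% of all genes did). At an unadjusted p under 0.05 there were 2, SPRED1 (log2 fold change of shXPO7_5/4OHT against shXPO7_3/4OHT -0.26) and DUSP5 (0.18), as were 11.9% of all genes, and DESeq2 called none of the 10. Corrected for GC content and length, SPRED1 differed between the shRNAs by -0.00020 (adjusted p = 0.9995). XPO7 differed by 0.92 on the log2 scale, with more of it left with shXPO7_5. Of the 56 tested genes of the other pathway lists, none passed by edgeR in either knockdown against vector/4OHT (0.124% and 0.589% of all genes). None passed between the shRNAs. At an unadjusted p under 0.05 there were 6 with shXPO7_3 (6.41% of all genes) and 14 with shXPO7_5 (21.6% of all genes). Between the shRNAs there were 10 (11.9% of all genes). The per-length sums of the families stayed near those of vector/4OHT, with the DUSP genes at 193 ± 2.65 and 199 ± 6.58, the Sprouty genes at 97.3 ± 5.17 and 102 ± 5.33 and the SPRED genes at 47.7 ± 0.28 and 45.4 ± 1.90 CPM per kilobase. The order of the 10 genes per length was that of vector/4OHT in both groups. The libraries of SPRY2, DUSP5 and SPRY4 now overlapped from neighbour to neighbour, as did those of DUSP1 and SPRED2.

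The deviations of the genes from their group means were also compared from library to library. Of the 45 pairs, 14 had a correlation of their deviations over 0.5 and 6 one under -0.5 (Pearson's r of log2 CPM, 12 libraries, a description only). DUSP1 and DUSP5 were the pair with the highest value (r = 0.90), and SPRED1 ran against DUSP5 (r = -0.87), DUSP1 (r = -0.85), SPRED3 (r = -0.79) and SPRY4 (r = -0.75). The points share libraries that differ in their trend with GC content. DUSP1 and DUSP5 are GC-rich (55.1% and 55.5%). DUSP4, at 53.1%, had r = 0.28 with DUSP5, and SPRY2, at 47.0%, had r = 0.79. Whether the trend accounts for these correlations was not tested. Among genes outside the lists, those whose log2 CPM followed a member most closely over the 12 libraries were BPGM for DUSP6 (r = 0.999), SEMA7A for SPRY4 (r = 0.999), CSF3 for DUSP4 (r = 0.999), SEL1L3 for SPRY2 (r = 0.999) and HEY1 for SPRED2 (r = 0.999). The points of these correlations share the step between the vector libraries and the 9 induced libraries.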

How the data were processed

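RNA-seq libraries (4 groups, 3 per group) of IMR90 ER:RAS cells were prepared with Illumina's stranded mRNA kit. The authors deposited raw counts of reads per gene. According to the submitters' processing notes, CASAVA 1.8.4, TopHat2 2.0.11 and featureCounts 1.18.0 were used, with hg19 and GRCh37 as builds. The annotation, strand setting and handling of multi-mapping reads were not given in the sources used here. Groups came from the labels, the name vector from the study's text, and shXPO7_5 was taken to be its shXPO7_X5. The 92 spike-in entries were 0 and left out.

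Counts were fitted in R 4.3.3 with edgeR 4.0.16 (filterByExpr, TMM, quasi-likelihood test, all 12 libraries, 4 groups, no covariate), with Benjamini-Hochberg adjustment over 15284 genes and a threshold of 0.05. CPM were TMM-scaled, lengths and GC content came from GENCODE 29. The script was tested on simulated data. No 2 libraries of a group matched within sampling noise (chi-square per gene 4.27 to 56.2). Letters were not taken to pair libraries, because not every same-letter pair's deviations correlated over 0.1 (10 of 15 did, r -0.68 to 0.89, median 0.35, against 16 of 39 other pairs, median -0.33).

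Named genes were the 10 members, XPO7, from each list up to 3 called genes with the largest change, and genes most correlated with a member. Lists were other MAPK phosphatases (DUSP2, DUSP7, DUSP8, DUSP9, DUSP10, DUSP16), other inhibitors (SPRY3, ERRFI1, LRIG1, IL17RD, PEBP1, PEA15, NF1, CBL, CBLB, LZTR1), the core cascade (GRB2 to MAPK3), ERK-induced genes, p38 and JNK kinases, state checks and cell type markers. Members and lists were chosen with earlier results of these data known. Alternatives were other scalings, filters, a replicate block, a GC and length offset, 2 groups only, DESeq2 1.42.0, a fold threshold and each library left out.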

Additional observations from a re-analysis of the deposited data

How the results depend on the processing

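Each member was refitted under 21 alternatives in 6 comparisons. All 10 members were called higher in vector/4OHT against vector under all 21 and in both knockdown groups against vector. Of 1260 member values, 1251 stayed on their side of the threshold (called values in the same direction, uncalled ones within the 95% interval), 1 was reversed, and of 630 uncalled values 38 changed sign. With a log2 fold change of at least 1 added to the call, 6 members counted in vector/4OHT against vector, 6 in shXPO7_3/4OHT against vector and 7 in shXPO7_5/4OHT against vector. Upper-quartile scaling moved the median of all genes in vector/4OHT against vector from -0.0068 to -0.10, and the share of calls that were higher from 48.8% to 38.3%. The letters were not taken to pair the libraries, and 4 of 12 libraries correlated best with one of their own letter. The replicate block alone called 0 members in either knockdown against vector/4OHT (13 genes in all for shXPO7_3 and 149 for shXPO7_5, against 19 and 90). The GC and length offset alone called 0 members (382 and 503 genes). GC and length offset together with the replicate block called 2 members for shXPO7_3 (SPRY4 0.15, adjusted p = 0.0447, and SPRED1 0.20, adjusted p = 0.0489, of 481 genes) and 3 for shXPO7_5 (SPRY4 0.17, adjusted p = 0.0240, DUSP4 -0.23, adjusted p = 0.0465, and SPRED1 reversed at 0.21 with adjusted p = 0.0336, of 1040 genes); the cause was not tested. With that offset, alone and with the block, SPRED1 between the shRNAs went from -0.26 to -0.00020 and 0.0028. Leaving out each library gave 0 to 1 members for shXPO7_5, where leaving out library A of shXPO7_5/4OHT called SPRY4 and 3634 genes in all. DESeq2 called 88, 426 and 27 genes in shXPO7_3, shXPO7_5 and between them (edgeR 19, 90 and 2), and the fit to 2 groups only called 2, 10 and 0. Of the named list genes, DUSP8 lost its call under the GC offset with block, and XPO7 between the shRNAs in the fit to 2 groups only (log2 fold change 0.91, adjusted p = 0.114). Members with few reads, SPRY1 and SPRED3, had the widest intervals.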
